A study of Mus musculus with 12 samples.

Results

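The miR-34 family was followed in microglial exosomes of the mouse brain after repetitive mild traumatic brain injury (rmTBI). It was represented by 5 mature arms, mmu-miR-34a-5p, mmu-miR-34b-5p, mmu-miR-34c-5p, mmu-miR-34b-3p, and mmu-miR-34c-3p (written below without the species prefix), each matched by its exact name among the 1881 mouse miRNAs on a one-color Agilent miRNA array. All 5 arms were found, each with 2 probes of 15 spots. Male C57BL/6 mice, bought at 12 weeks of age, received 4 closed-head impacts at intervals of 48 h and were killed at 3, 14, or 42 days post-injury (DPI), and sham mice went through the same procedure without impact. The time at which the sham brains were taken is not given in the sources used here. There were 12 arrays, 3 for each of sham, 3 DPI, 14 DPI, and 42 DPI. Exosomes came from digested tissue of the cerebrum (cortex and hippocampus in the study's methods), and those carrying CD11b, a surface protein of microglia and other myeloid cells, were pulled down with an antibody. The samples are therefore vesicles selected by 1 surface protein and not sorted cells. Nothing in the labels says whether a replicate is 1 mouse or a pool, so that the p values measure the spread between these samples, which may be partly technical.

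A miRNA is cut from a hairpin into a 5p and a 3p arm, and an arm represses the mRNAs that pair with its seed, the bases near its 5′ end. The genes of miR-34a and of the miR-34b and miR-34c pair are textbook targets of the transcription factor p53, which turns them on after DNA damage, and their 5p arms repress mRNAs for cell cycle and survival proteins such as CDK6, MYC, and BCL2. In the brain miR-34a is best known in neurons, where it has been linked to cell death and aging.

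The mature sequences are shown because they show which arms share a seed and which do not. RefSeq (build GRCm38.p6) held 4 of the 5 arms. It held no mature sequence of miR-34c-5p, nor of miR-449b, so that their absence below says nothing about their seeds. Capitals mark the seed, bases 2 to 8, and all sequences are written 5′ to 3′.
miR-34a-5p: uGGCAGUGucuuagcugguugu
miR-34b-5p: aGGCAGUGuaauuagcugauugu
miR-449a-5p: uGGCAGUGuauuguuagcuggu
miR-449c-5p: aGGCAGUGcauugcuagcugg
miR-34b-3p: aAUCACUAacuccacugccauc
miR-34c-3p: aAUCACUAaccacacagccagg
miR-34a-3p: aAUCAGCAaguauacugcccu
The first 4 sequences share 1 seed, which no other of the 1679 mature miRNAs in the table carried. miR-449a-5p and miR-449c-5p are products of another hairpin cluster, known from ciliated cells. The seed of miR-34b-3p was shared with miR-34c-3p alone, while miR-34a-3p, the other arm of the miR-34a hairpin, had one of its own. Over its whole length miR-34a-5p was 4 single-base edits away from miR-34b-5p and 6 from miR-449a-5p, and the 2 listed 3p arms were 5 edits apart. miR-34a-5p lies on the plus strand at chr4:150068473-150068494. miR-34b-5p (chr9:51103610-51103632), miR-34b-3p (chr9:51103574-51103595), and miR-34c-3p (chr9:51103044-51103065) lie on the minus strand, and 451 bases separate the 2 hairpins of miR-34b and miR-34c. Both hairpins lie within the spans of the protein-coding genes Btg4 and Hoatz in RefSeq's gene table, whereas no other gene of that table overlapped the hairpin of miR-34a.

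The arrays differed in brightness with the groups. The 75th percentile of intensity over the 230 miRNAs found on every array was lowest in sham (217 to 348), then 401 to 619 at 3 DPI, then 588 to 1173 at 14 DPI, and highest at 42 DPI (1385 to 2936). Between 243 and 285 miRNAs were detected per sham array and between 490 and 579 per array of 42 DPI. Detection asked that, for any probe of the miRNA, a share over 0.5 of the spots kept passed the scanner software's test for lying well above background. Array 1 of 3 DPI shared slide 1 with the 3 arrays of sham, and the other 8 arrays were on slide 2. Signals below are log2 of the intensity over that percentile of the same array, so that 0 stands for the percentile itself, and such a level describes a miRNA across arrays and is not set against that of another miRNA. The array numbered 1 of 14 DPI stood apart in its group, with the lowest signal of all 3 5p arms and a 75th percentile of 588 against 1116 and 1173 on the other 2.

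The 3 5p arms were well above background on all 12 arrays, whereas the 3p arms were at or below background on most of them. The level of miR-34a-5p, the best studied p53 target of the family, was 1.28, 1.65, and 1.57 on the sham arrays 1 to 3 (log2 scaled signal), a mean of 1.50 ± 0.20 (SD, n = 3 arrays). At 3 DPI it was 1.29, 1.59, and 1.01, a mean of 1.30 ± 0.29 (SD, n = 3). The 2 groups overlapped, with the third array of 3 DPI below every sham array. At 14 DPI the level was 0.83, 1.76, and 1.91 (1.50 ± 0.59, SD, n = 3), and at 42 DPI 2.00, 1.94, and 1.92 (1.95 ± 0.04, SD, n = 3). All 3 arrays of 42 DPI lay above all 9 others, by a narrow margin over array 3 of 14 DPI. They spanned a range of 0.08, against 1.08 at 14 DPI.

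miR-34b-5p comes from the chromosome 9 hairpins that are usually most active in ciliated and germ cells. Its log2 scaled signal was -1.13, -0.66, and -0.51 in sham (-0.77 ± 0.32, SD, n = 3) and -1.15, -0.78, and -1.35 at 3 DPI (-1.09 ± 0.29, SD, n = 3). It was -1.68, -0.83, and -0.48 at 14 DPI (-0.996 ± 0.62, SD, n = 3) and -0.51, -0.66, and -0.51 at 42 DPI (-0.56 ± 0.08, SD, n = 3). The sham arrays overlapped every other group, and only 3 DPI lay entirely below 42 DPI.

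For miR-34c-5p, the neighbor of miR-34b-5p, the sham arrays gave -1.73, -1.26, and -1.28 (-1.42 ± 0.27, SD, n = 3) and those of 3 DPI -1.65, -1.23, and -1.85 (-1.58 ± 0.31, SD, n = 3) on the same log2 scale. The values were -2.21, -1.26, and -1.05 at 14 DPI (-1.51 ± 0.62, SD, n = 3) and -0.98, -1.15, and -1.18 at 42 DPI (-1.10 ± 0.11, SD, n = 3). The arrays of 42 DPI lay above those of sham and 3 DPI, the nearest sham array being 0.08 away, and they overlapped 14 DPI. On sham array 1, where its intensity before scaling was lowest, 15 of its 29 kept spots were well above background.

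**Figure D1:**
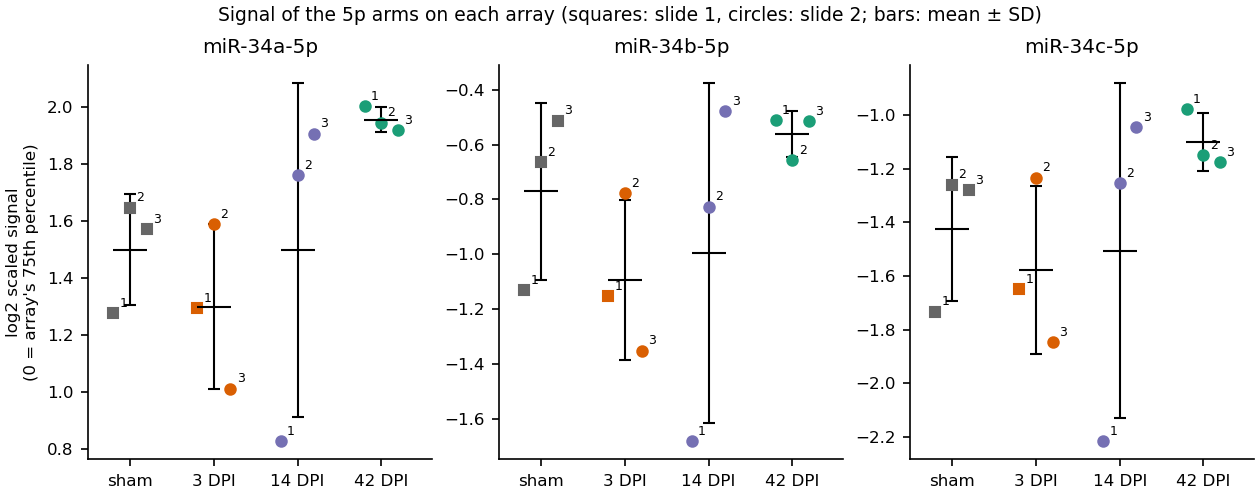
Log2 scaled signal of miR-34a-5p, miR-34b-5p, and miR-34c-5p (vertical axis, 0 is the 75th percentile of the array) on each of the 12 arrays by group (horizontal axis), with replicate numbers beside the points and the mean ± SD (n = 3) as bars. The arrays of 42 DPI lie close together near the top of each panel (1.92 to 2.00 for miR-34a-5p), and array 1 of 14 DPI is the lowest of all 12 for each arm.

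Whether the family changed with injury or with time was tested with limma over the 486 miRNAs that 1 group or more showed as detected on each of its arrays, and p values were adjusted over all of them (Benjamini-Hochberg). At 3 DPI the log2 differences against sham were -0.20 for miR-34a-5p (95% interval -0.82 to 0.42), -0.32 for miR-34b-5p (-1.02 to 0.37), and -0.15 for miR-34c-5p (-0.84 to 0.54). On the dimmer of their 2 probes alone, miR-34a-5p and miR-34c-5p were at 0.09 and 0.04. limma called 0 arms at an adjusted p under 0.05 and 0% of all tested miRNAs. At an unadjusted p under 0.05 the figures were 0 arms and 1.03% of all, and 0 arms were without overlap between the groups, against 1.23% of all. At 14 DPI the log2 differences against sham were -0.00086 for miR-34a-5p (-0.62 to 0.62), -0.23 for miR-34b-5p (-0.92 to 0.47), and -0.08 for miR-34c-5p (-0.77 to 0.61), with 0 arms called by limma against 1.23% of all miRNAs. At an unadjusted p under 0.05 it was 0 arms against 13% of all, and without overlap 0 arms against 8.23%. A replicate block cannot change these differences, since each group holds each replicate number once. Under it 0 of all miRNAs were called. Without array 1 of 14 DPI all 3 turned positive (0.33, 0.12, and 0.27), still below the threshold, with adjusted p from 0.234 to 0.957 in limma.

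At 42 DPI the mean of each 5p arm was above sham, and limma called none. The log2 difference was 0.46 for miR-34a-5p (95% interval -0.17 to 1.08), which is 1.37-fold with an interval from 0.892 to 2.11. It was 0.21 for miR-34b-5p (-0.48 to 0.90) and 0.32 for miR-34c-5p (-0.36 to 1.01). The adjusted p values in limma were 0.308, 0.833, and 0.577, while 14% of all tested miRNAs were called in this comparison. At an unadjusted p under 0.05 it was 0 arms against 30.9% of all. In a fit limited to the 230 miRNAs found on every array, limma called 99 and no arm. The arrays of 42 DPI lay above those of sham for 2 of the 3 arms, and 46.3% of all tested miRNAs had groups that did not overlap. Among the 230 miRNAs found on every array, 65 had a higher log2 difference than miR-34a-5p, and the median over them was -0.02. The methods' t-test between the 2 groups, and limma on these 2 groups alone, both gave miR-34a-5p an adjusted p of 0.044. Both settings left the other groups out of the estimate of spread and also changed the set of miRNAs adjusted over. Which of these moved the call of miR-34a-5p was not tested. Over all alternatives that did not leave out an array its adjusted p ranged from 2.30e-05, without scaling, to 1.

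Between the time points, the widest gap was that of miR-34a-5p from 3 to 42 DPI. The log2 difference was 0.66 (95% interval 0.03 to 1.28; 1.58-fold), higher on 3 of 3 arrays of 42 DPI than on any of 3 DPI. Its unadjusted p was 0.041, which 31.3% of all tested miRNAs had under 0.05, and its adjusted p was 0.140 in limma. miR-34b-5p differed by 0.53 (-0.16 to 1.23) and miR-34c-5p by 0.47 (-0.21 to 1.16), both also with no overlap. The shares over all tested miRNAs were 3.91% called and 42.8% without overlap. In a fit limited to the 230 miRNAs found on every array, limma called 96 and no arm. Leaving array 1 of 14 DPI out of the fit does not change the difference. It changes the shared spread, and the set of miRNAs adjusted over was chosen anew. That fit gave miR-34a-5p an adjusted p of 0.018 in limma. Within slide 2, which held 2 arrays of 3 DPI and all 3 of 42 DPI, the log2 differences of the 3 arms were 0.65, 0.50, and 0.44, with an adjusted p of 0.297 for miR-34a-5p.

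From 3 to 14 DPI the arms moved by 0.20, 0.10, and 0.07 (log2 differences of miR-34a-5p, miR-34b-5p, and miR-34c-5p), with 0 called by limma against 0.617% of all miRNAs, 0 at an unadjusted p under 0.05 against 10.9%, and 0 without overlap against 6.38%. From 14 to 42 DPI the 3 arms had similar log2 differences, 0.46 (-0.16 to 1.08), 0.44 (-0.26 to 1.13), and 0.40 (-0.28 to 1.09). Of the 230 miRNAs found on every array, 4, 8, and 12 had higher ones. limma gave each arm an adjusted p of 0.864 and called 0% of all tested miRNAs. Unadjusted, 0 arms and 4.73% of all were under 0.05, and miR-34a-5p was without overlap, as were 13.8% of all. These differences rested on array 1 of 14 DPI, since without it they were 0.12, 0.09, and 0.05. On this scaled signal none of the 3 5p arms reached the 2-fold change that the study's methods asked for, in any of the 6 comparisons.

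**Figure D2:**
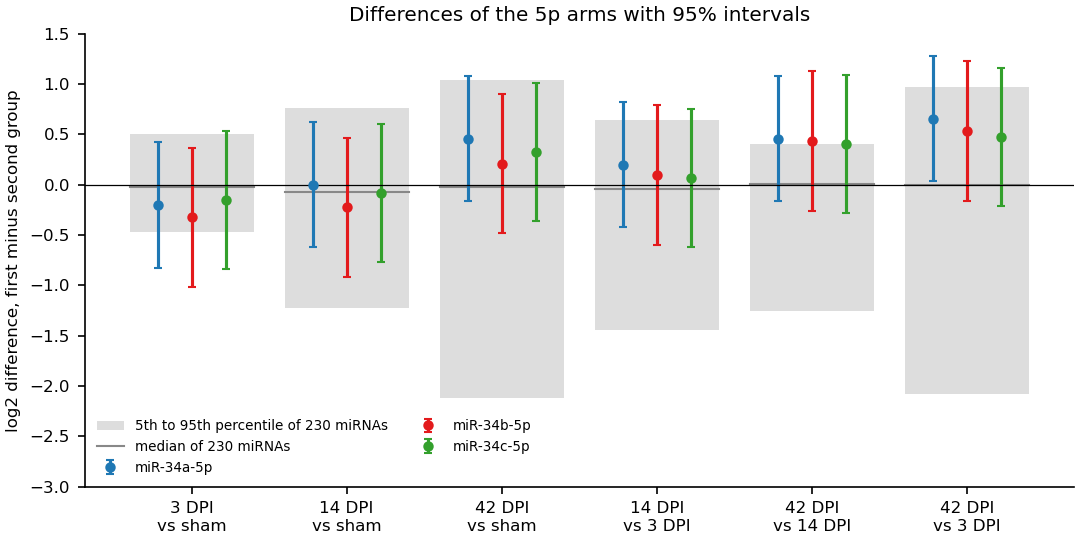
Log2 difference of each 5p arm (vertical axis, first minus second group) with its 95% interval from limma in the 6 comparisons (horizontal axis), 3 arrays per group. Gray boxes span the 5th to the 95th percentile, and gray lines the median, of the 230 miRNAs found on every array. Of the 18 intervals, that of miR-34a-5p at 42 against 3 DPI (0.03 to 1.28) is the one that does not hold 0.

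Before scaling, the intensity of every 5p arm grew along the groups with that of the array as a whole. The intensity of miR-34a-5p was 801 ± 202 (SD, n = 3 arrays) in sham, 1252 ± 531 at 3 DPI, 3065 ± 1755 at 14 DPI, and 8035 ± 3333 at 42 DPI (each SD, n = 3). Over the same 4 groups the intensity of miR-34b-5p was 170 ± 63.9, 240 ± 105, 549 ± 324, and 1413 ± 599, and that of miR-34c-5p 106.5 ± 31.8, 172 ± 78.9, 386 ± 226, and 979 ± 454 (each SD, n = 3). These intensities varied more between arrays of a group than between spots of a probe, whose median CV was 3.47% for miR-34a-5p, 5.56% for miR-34b-5p, and 6.93% for miR-34c-5p. Without scaling, the log2 difference of miR-34a-5p at 42 DPI against sham was 3.28, and the median over the 230 miRNAs found on every array was 2.80. limma on unscaled values called all 3 5p arms higher at 42 DPI than in each other group, and higher at 14 DPI than in sham. Of the 486 miRNAs tested, 409 were called at 42 DPI against sham, 303 against 3 DPI, and 167 against 14 DPI. At 14 DPI against sham 321 were called. The median over the 230 miRNAs was likewise up without scaling, by 0.77 at 3 DPI and 1.64 at 14 DPI against sham. The cause of the difference in brightness was not tested.

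The 3p arms gave little that can be compared. miR-34b-3p, the partner arm of miR-34b-5p, was detected on 0 of 12 arrays. Its intensity, summed over both probes, lay between -1.33 and 22.6, and on the brightest array 5 of its 30 kept spots were well above background. The arm did not pass the filter and was not tested. miR-34a-3p was likewise detected on 0 of 12 arrays, with an intensity of 0.322 at most.

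miR-34c-3p was detected on 5 arrays, 2 and 3 of 14 DPI and all of 42 DPI, and these were the 5 brightest of the 12. Its intensity was -0.105, -0.904, and 2.47 in sham, 2.15, 2.85, and 1.67 at 3 DPI, 7.41, 21.6, and 24.8 at 14 DPI, and 60.1, 24.8, and 38.1 at 42 DPI. Detection rests on the same spots, so that the higher intensity of the detected arrays is no separate result. As a ratio to the 75th percentile of its array, the signal was 0.0179 to 0.0222 on the 5 arrays, below the lowest ratio that counted as detected on any sham array, 0.0402 to 0.0791 across the 3. At the ratio of 42 DPI the arm would thus lie below the lowest detected ratio of each sham array, and no fold change is given. With the common floor (0.0791, or -3.66 on the log2 scale) all 12 arrays of the arm had 1 value, so that limma found a difference of 0 by construction. This arm passed the filter only through 42 DPI. miR-449a-5p, with the seed of the 5p arms, was detected on the same 5 arrays and met the same limit. miR-449b and miR-449c-5p were detected on none.

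**Figure D3:**
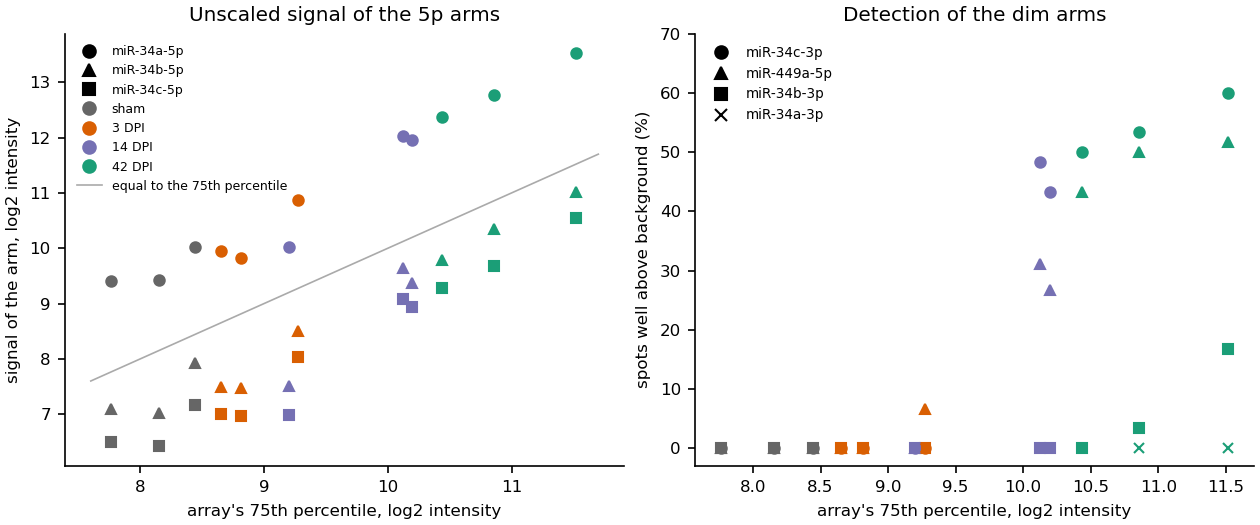
Left, log2 intensity of the 3 5p arms (vertical axis) against the 75th percentile of the array (horizontal axis, log2 intensity) on the 12 arrays, with a color for each group and a gray line of equality. Right, the share of kept spots well above background (vertical axis, percent) for the dim arms against the same percentile. The 5p arms follow the brightness of the array, and miR-34c-3p and miR-449a-5p lie at 26.7% to 60% on the 5 brightest arrays and at 6.67% or less on the others.

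In the authors' deposited table of processed values, miR-34c-3p had another course. Its log2 values were -1.32, -3.32, and -3.32 in sham, -2.48, -2.57, and -2.49 at 3 DPI, then 0.39, 0.42, and 0.36 on the arrays of 14 DPI and 1.40, 0.98, and 0.55 on those of 42 DPI. limma on that table called it above sham by 3.05 at 14 DPI and 3.63 at 42 DPI, and above 3 DPI by 2.91 and 3.49. Over all tested miRNAs, that table gave 143, 249, 107, and 286 calls in the same comparisons, so that a call was common there. The value of array 1 of 14 DPI, where the scanner file holds no spot of this arm well above background, equals the mean of the other 2 arrays of its group, as does that of array 2 of 42 DPI. The same held for miR-449a-5p on the same 2 arrays. Over all 1881 miRNAs, the middle value of a group was often the mean of the other 2 (to within 2e-05). This held for 28.6% of the 682 miRNAs that varied in sham and 30.5% of the 676 at 3 DPI. It held for 27.3% of the 677 at 14 DPI and 17.1% of the 678 at 42 DPI, and for none of the 5p arms in any group. How that table was made is not given in the sources used here.

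The 2 probes of each 5p arm did not keep the same ratio on all arrays. For miR-34a-5p the log2 ratio of the dimmer to the brighter probe was -2.09 ± 0.03 (SD, n = 4 arrays) on slide 1 and -1.53 ± 0.02 (SD, n = 8) on slide 2. The array of 3 DPI on slide 1 had -2.07 and lay with the sham arrays of its slide. For miR-34b-5p the ratios were -1.33 ± 0.05 (SD, n = 4) and -0.95 ± 0.02 (SD, n = 8), and for miR-34c-5p -2.52 ± 0.05 (SD, n = 4) and -2.23 ± 0.05 (SD, n = 8). The dimmer probe of miR-34c-5p was not above background on 2 of the 4 arrays of slide 1, with 0 of 14 spots well above it on sham array 1 and 6 of 15 on sham array 2, so that its ratios there are uncertain. The other 2 arrays of slide 1 gave -2.58 and -2.45, below the lowest of slide 2 (-2.32). For miR-34a-5p and miR-34b-5p, whose probes were both above background on all 12 arrays, the slides did not overlap. Of the 4 groups only 3 DPI was on both slides, and its 3 arrays followed their slide. Sham and slide 1 cannot otherwise be told apart.

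Each comparison with sham therefore depended on the probe. At 42 DPI against sham the log2 difference of miR-34a-5p was 0.33 on its brighter probe and 0.89 on its dimmer one. For miR-34b-5p these were 0.09 and 0.46, and for miR-34c-5p 0.27 and 0.59, the last against a sham mean with 2 of 3 values not above background. The sign itself turned with the probe in the other comparisons with sham. At 14 DPI the brighter and the dimmer probe gave -0.13 and 0.45 for miR-34a-5p, -0.34 and 0.03 for miR-34b-5p, and -0.13 and 0.18 for miR-34c-5p. At 3 DPI they gave -0.28 and 0.09 for miR-34a-5p and -0.19 and 0.04 for miR-34c-5p, while miR-34b-5p had -0.39 and -0.18. Within slide 2, at 42 against 3 DPI, the brighter and the dimmer probe gave 0.65 and 0.67 for miR-34a-5p, 0.50 and 0.52 for miR-34b-5p, and 0.43 and 0.47 for miR-34c-5p. Within slide 1, the array of 3 DPI lay below the sham mean for both probes of every 5p arm, with log2 differences from -0.43 to -0.15. A fit that blocked on the slide, and so turned on that single array, gave log2 differences at 42 DPI against sham of 0.45 for miR-34a-5p (adjusted p = 0.691 in limma), 0.12 for miR-34b-5p, and 0.22 for miR-34c-5p, and 0 of all tested miRNAs were called.

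**Figure D4:**
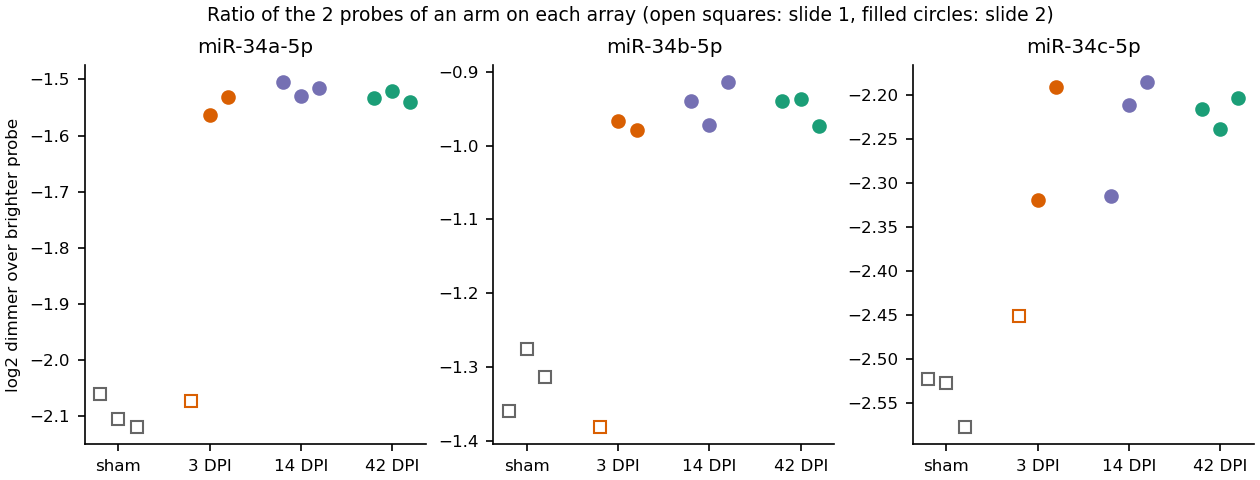
Log2 ratio of the dimmer to the brighter probe of each 5p arm (vertical axis) on the 12 arrays by group (horizontal axis); open squares are arrays of slide 1 and filled circles arrays of slide 2. The single 3 DPI array of slide 1 sits nearer to sham than to slide 2 in each panel (-2.07 for miR-34a-5p), and the other 2 sit with 14 and 42 DPI. For miR-34c-5p the dimmer probe was not above background on sham arrays 1 and 2.

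Ratios between the 5p arms within an array need no scaling. They do rest on summed probes, whose balance differed between the slides by unlike amounts for the 3 arms. All sham arrays were on slide 1, so that slide and injury cannot be told apart in a difference from sham. The log2 ratio of miR-34a-5p to miR-34b-5p was higher at 42 DPI than in sham by 0.25 with no overlap of the groups, and that of miR-34a-5p to miR-34c-5p was higher by 0.13 with overlap. The ratio of miR-34b-5p to miR-34c-5p was lower than in sham by 0.17 at 3 DPI and by 0.14 at 14 DPI, both without overlap, and by 0.11 at 42 DPI with overlap. Against 3 DPI, the ratio of miR-34a-5p to miR-34c-5p was higher by 0.13 at 14 DPI and by 0.18 at 42 DPI, again without overlap. The SD of these ratios within a group was between 0.02 and 0.17. Of 18 such comparisons, none passed an exact permutation test (two-sided), in which 3 arrays against 3 cannot give a p below 0.10 and the adjusted p values were 0.36 or higher.

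As a description over the 12 arrays, the log2 scaled signal of miR-34a-5p followed that of miR-873a-5p (r = 0.975), miR-34c-5p (r = 0.971), and let-7i-5p (r = 0.966) most closely among the 229 other miRNAs found on every array, where the median r was 0.593. miR-34b-5p was most like miR-34c-5p (r = 0.968), miR-24-3p (r = 0.944), and miR-34a-5p (r = 0.937). For miR-34c-5p the first 3 were miR-24-3p (r = 0.972), miR-379-5p (r = 0.972), and miR-34a-5p (r = 0.971), with miR-34b-5p next. All of these values share the scaling factor of their array and the low array 1 of 14 DPI.

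Other miRNAs linked to p53 were set beside the family, on a list of 16 that includes the miR-29 family and miR-143-3p. Of these, 14 were tested and 9 were detected on all 12 arrays. At 42 DPI against sham limma called 1 of the 14, lower, beside 14% of all tested miRNAs, and 5 of the 14 had an unadjusted p under 0.05, beside 30.9% of all. With the slide as a block 0 were called. In the other 5 comparisons limma called 0 of the 14, beside 0% to 3.91% of all. At an unadjusted p under 0.05 it was 0 of the 14 at 3 DPI against sham (1.03% of all) and 3 at 14 DPI against sham (13%). It was 2 at 14 against 3 DPI (10.9%), 0 at 42 against 14 DPI (4.73%), and 2 at 42 against 3 DPI (31.3%). The 1 called was miR-200c-3p, known from epithelia, with log2 scaled signals of -1.97, -1.32, and -2.77 in sham and the floor on all 3 arrays of 42 DPI (adjusted p = 0.043). Its scaled signal there, 0.0314 to 0.0411, lay under the floor of 0.0791, so that the log2 difference of -1.64 understates the fall. miR-29b-3p, which targets collagen mRNAs, had the highest positive difference of the list at 42 DPI against sham, 0.77 on the log2 scale from 2.49 ± 0.34 to 3.26 ± 0.14 (SD, n = 3 each). The median log2 difference of the list in that comparison was 0.12. Over all tested miRNAs the median was 0 in every comparison, and 105 of the 486 lay at the floor on every array. That 0 is therefore no measure of a typical miRNA, and no rise of the list is read from it.

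Markers of cell types were read on the same arrays. On a list of 6 myeloid miRNAs, miR-142a-5p was detected on no array, miR-142a-3p and miR-155-5p on no array of sham or 3 DPI, and between 1 and 5 of the 6 on any one array. Their summed scaled signal was 0.674 to 0.934 in sham and 0.620 to 0.971 at 3 DPI, then 0.704 to 1.28 on the arrays of 14 DPI and 1.34 to 1.50 on those of 42 DPI. Most of this sum came from miR-21a-5p, whose mean log2 scaled signal was -0.55, -0.56, -0.13, and 0.32 in these groups. The means of miR-142a-3p and miR-146a-5p lay at the floor in every group, and that of miR-223-3p at or near it. limma called 0 of the 4 tested in any comparison. All 6 neuronal miRNAs on a list that includes miR-9 and miR-128-3p were detected on every array. Their summed scaled signal was 16.4 to 21.8 in sham and 16.2 to 22.1 at 3 DPI, spread over 16.6 to 32.5 at 14 DPI, and stood at 29.6 to 33.9 at 42 DPI, and 2 of the 6 were called higher at 42 DPI than in sham by limma. In that comparison 14% of all tested miRNAs were called, and 0 of all with the slide as a block, which holds for each list here. All 3 miRNAs of an oligodendrocyte list were also detected on every array, with summed scaled signals of 1.80 to 2.51 in sham, 2.12 to 3.63 at 3 DPI, 2.15 to 4.11 on the arrays of 14 DPI, and 4.12 to 4.43 on those of 42 DPI. limma called miR-219a-5p and miR-219a-2-3p higher at 42 DPI than in sham, and miR-219a-2-3p also than at 3 DPI. In the comparison with 3 DPI, 3.91% of all tested miRNAs were called, and 0 with the slide as a block or within slide 2 alone. On a list of 6 miRNAs of ependyma and choroid plexus, the ciliated and secretory linings of the ventricles, the summed scaled signal was 1.41 to 2.50 in sham, 1.38 to 2.81 at 3 DPI, 0.971 to 1.73 on the arrays of 14 DPI, and 1.43 to 1.64 on those of 42 DPI. At 42 DPI against sham limma called 1 of its 5 tested members higher and 3 lower, and miR-449a-5p and miR-449c-5p belong to this list. Of 3 erythrocyte miRNAs none was detected in sham, and miR-144-3p was detected on no array. Their summed scaled signal was nonetheless 0.0848 to 0.124 in sham and 0.0702 to 0.176 at 3 DPI. It was 0.0566 to 0.0850 at 14 DPI and 0.0443 to 0.0830 at 42 DPI, so that detection on the brighter arrays was no rise in scaled signal. Whether any of these has a part in the levels of miR-34a-5p at 42 DPI was not tested. In exosomes, a change in the vesicles captured and a change in their load of a miRNA cannot be told apart.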

How the data were processed

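Agilent scanner files of 12 arrays were used. In the deposited files, made by the authors with Agilent Feature Extraction 10.7.1.1 (version from the submitters' processing notes), each spot has a background-corrected intensity; a deposited table of processed values is on a log2 scale (floor 0.1, steps not given in the sources used here). Control spots and outlier-marked spots were dropped, kept spots of a probe averaged, probes of a miRNA summed, and the sums scaled by the array's own 75th percentile over miRNAs detected on all 12 arrays. Values under 1 common floor, the highest over arrays of the lowest detected scaled signal, were set to it before log2. On each sham array 2 spots carry other names and were named as on the injury arrays. limma 3.58.1 (R 4.3.3) fitted the 4 groups over 486 miRNAs. Of these, 105 lay at the floor on every array. The number of arrays limits the precision. The members and lists were chosen with earlier results of these data known. The miRNAs named are the 5 arms, their other arm and seed relatives, the p53-linked list, and the 3 miRNAs nearest in pattern to each 5p arm. Sham and 14 DPI arrays of the same replicate number deviated together (correlations 0.843, 0.443, and 0.777 across miRNAs). In every other comparison of groups these correlations had mixed signs, from -0.744 to 0.783, both at 14 against 3 DPI. With 3 arrays per group such correlations cannot show a pairing, and the replicate block is given as an alternative setting. The limma code was first tested on simulated data.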

Additional observations from a re-analysis of the deposited data

Results flagged for a closer look

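The scanner software's own total signal per miRNA, which no comparison above uses, was above its level in sham (0.1 on each sham array, its lowest value) for both 3p arms on some injury arrays. For miR-34b-3p it was 3217 on array 1 and 1924 on array 3 of 42 DPI, although the totals of its own 2 probes there summed to 6.16 and 3.75. The value exceeded the total of miR-34a-5p on the same array by 3.94 and 2.56, which are the totals of the larger of its own probes. For miR-34c-3p the total was 186 and 222 on arrays 2 and 3 of 14 DPI, and 242 and 365 on arrays 2 and 3 of 42 DPI. Each exceeded the total of miR-34b-5p by that of its own larger probe (5.02, 5.72, 5.52, and 8.35). On array 1 of 42 DPI it was 16.4, the sum of its own 2 probes. Between 70 and 110 miRNAs per array had a total over 3 times that of their own probes. As an alternative setting, these totals put miR-34c-3p above sham by 2.36 at 14 DPI and 2.41 at 42 DPI on the log2 scale (adjusted p = 0.215 and 0.134 in limma), values that rest on the totals described here. No value above comes from them. The cause was not tested.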

How the results depend on the processing

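Members called by limma were 0 in all 6 comparisons, and over the other settings the count was 0 except as follows. Without scaling it was 3 at 14 DPI against sham, 4 at 42 DPI against sham, 3 at 42 against 14 DPI, and 4 at 42 against 3 DPI. With the deposited values it was 1 at 14 and at 42 DPI against sham and at 14 against 3 DPI, and 2 at 42 against 3 DPI. At 42 DPI against sham it was 1 (miR-34a-5p) with only the groups compared and 1 with the methods' t-test. When single arrays were dropped the count was 0 to 1 at 42 against 3 DPI, the 1 being miR-34a-5p without array 1 of 14 DPI. Signs turned as follows (log2 differences of miR-34a-5p, miR-34b-5p, and miR-34c-5p in that order). Without scaling, 3 DPI against sham was 0.59, 0.47, and 0.64, and 14 DPI against sham 1.72, 1.49, and 1.64. With the 75th percentile over all miRNAs, which put the median of the 230 miRNAs there at 0.20, the latter was 0.28, 0.058, and 0.20. For miR-34a-5p at 14 DPI against sham, the software's total signal gave 0.22, normexp 0.22, the software's detection call 0.014, and the deposited values 0.16. For miR-34c-5p there, the total signal gave 0.14 and quantile normalization 0.020, and normexp gave -0.13 at 42 DPI against sham and -0.0083 at 14 against 3 DPI. With 1 array left out, 14 DPI against sham ranged from -0.21 to 0.33, -0.48 to 0.12, and -0.31 to 0.27, and 14 against 3 DPI from -0.0052 to 0.53, -0.16 to 0.44, and -0.16 to 0.43. By single probe, the signs at 3 and 14 DPI against sham also turned, with values given above. The cause was not tested.

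With a replicate block, which by design leaves the differences unchanged, no arm was called (miR-34a-5p at 42 DPI against sham 0.46, adjusted p = 0.298 in limma). Counts over all miRNAs moved more than those of the arms. At 42 DPI against sham 68 were called by limma, and 27 with the replicate block, 0 with the slide as a block, 0 without a filter, 24 with 2 times the floor, 127 with 0.5 times the floor, and 409 without scaling. With 1 array left out it was 0 to 133, and 0 without any 1 array of 42 DPI. At 42 against 3 DPI 19 were called, from 0 to 303 over the settings, and at 14 DPI against sham 6, from 0 to 321. The other ranges were 0 to 107 at 14 against 3 DPI (3 called), 0 to 167 at 42 against 14 DPI (0), and 0 to 95 at 3 DPI against sham (0). With the floor at the median over arrays, chosen after seeing the data, 174 and 202 were called at 42 DPI against sham and 3 DPI, and without miRNAs at the floor on every array, also chosen after seeing the data, 91 and 92. The arms' own differences do not depend on the floor, since all 3 5p arms lie above it, and the 3p arms are limited by signal over background.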
